A study of Mus musculus with 23 samples.

Results

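Venous endothelial cells line the venules and veins that collect blood from the brain capillaries. A barcode counted as venous here when it held at least 500 genes and 800 unique molecular identifiers (UMIs), at most 10% of them mitochondrial, and passed 3 marker steps. It had a UMI of at least 4 of the endothelial genes Cldn5, Flt1, Ly6c1, Itm2a, Egfl7, Slco1a4, Ptprb and Pglyrp1, whose sum was at least 3 times that of Aqp4, Gja1, Cx3cr1, P2ry12, Mog, Mag, Kcnj8 and Acta2, genes of other brain cells. It had fewer than 3 UMIs of Plvap, a gene of fenestrated vessels. Its UMIs of Slc38a5, Vwf, Nr2f2 and Lrg1 summed to at least 3 and exceeded those of the arterial genes Gkn3, Bmx, Sema3g, Mgp and Fbln5. The members were thus chosen by the UMI counts of these genes in each barcode. The rule selected 19779 of 265025 barcodes, out of 110935 endothelial cells. A further 8979 endothelial cells reached the sum of 3 with the arterial genes ahead (arterial-marker cells), and 82177 met neither condition and are called other endothelial cells.

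The cells came from mouse brain without olfactory bulb, cerebellum, pons and medulla, collected 24 hours after AF647-labelled antibody had been injected intravenously at 45 mg/kg. ATV-TfR, an antibody transport vehicle that binds the transferrin receptor (gene Tfrc), was given to TfR mu/hu KI mice, ATV-CD98hc, which binds CD98hc (gene Slc3a2), to CD98hc mu/hu KI mice, and a control IgG to C57BL/6J mice. All 3 antibodies carry the LALAPG change of the Fc region in the labels, and all mice were 12 weeks old in the design text and 3.3 months in the labels. Each treatment has 2 pools, and each pool combined 1 male and 1 female mouse. Live cells were sorted into negative, low, medium and high AF647 bins by gates set on the positive cells of ATV-TfR, which gave 23 libraries because the control IgG negative bin has 1 library. Genotype and treatment coincide and cannot be told apart, and a difference between treatments below is a difference between groups of 2 pools. Dissociation was carried out with actinomycin D and anisomycin, inhibitors of transcription and translation.

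Arteries, capillaries and veins of the brain form a continuous gradient of endothelial states rather than sharply bounded classes. Capillary endothelium carries most of the barrier transporters, whereas postcapillary venules and veins are the usual site of leukocyte adhesion, express receptors for interleukin 1 and chemokines, and store von Willebrand factor. Antibody transport vehicles are designed to use receptors of the vessel wall that normally carry iron-loaded transferrin or, as the heavy chain of an amino acid exchanger, sit at the cell surface with a transporter such as Slc7a5.

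Library depth ranged from 1861238 to 90307818 UMIs, with 599 to 21518 barcodes. Venous cells numbered 3 to 14 per group in the negative bins of both ATVs and in the medium and high bins of control IgG, 37 in the low bin of ATV-TfR, and 251 to 6432 in the other groups, so these small groups give values only or were summed with a neighbouring bin. Venous cells of the ATV low libraries, the ATV-TfR medium libraries and the control IgG negative library carried the most RNA of astrocytes. The summed level of 6 astrocyte genes in venous cells was 3988 and 4016 CPM (UMIs of a gene scaled to a common total) in the ATV-TfR low libraries, 3716 and 3914 in its medium libraries, and 366 and 324 in its high libraries. It was 3507 and 3993 CPM in the ATV-CD98hc low libraries, 511 and 695 in the medium, and 83.3 and 52.0 in the high, against 24.1 and 14.3 in the control IgG low libraries and 1774 in its negative library. Other endothelial cells of the same libraries had like amounts (3939 and 4609.8 CPM in ATV-TfR low, 3524 and 3786 in ATV-CD98hc low). The ATV negative libraries held less: 120.8 and 0 CPM in the 3 and 3 venous cells of ATV-CD98hc (other endothelial cells 537 and 233), and 13.7 and 332 in the 8 and 6 of ATV-TfR (2103 and 939.6). Of the members, 1299 (6.57%) shared their barcode sequence with a barcode of another library, against 17183 (6.48%) of all barcodes.

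The 4 genes that chose the cells lie at separate places in the mouse genome (GRCm38, GENCODE M21 annotation). Slc38a5 (ENSMUSG00000031170, X, 8271133 to 8280179, plus strand) encodes a glutamine and small amino acid transporter and had a UMI in 84.8% of members. Vwf (ENSMUSG00000001930, chromosome 6, 125546774 to 125686679, plus strand), the gene of von Willebrand factor, had one in 65.2%. Nr2f2 (ENSMUSG00000030551, chromosome 7, 70351944 to 70366735, minus strand), a transcription factor of venous identity, had one in 49.8%, and Lrg1 (ENSMUSG00000037095, chromosome 17, 56119678 to 56122001, minus strand), a secreted glycoprotein of activated endothelium, in 1.19%. In other endothelial cells these shares were 26.3%, 16.2%, 9.56% and 0.0219%. In arterial-marker cells they were 12.99%, 44.003%, 18.3% and 0.0445%, so Vwf and Nr2f2 were more frequent there than in other endothelial cells. In 12004 microglia, which should lack these genes, Slc38a5 had a UMI in 0.0417%, Vwf in 0.483% and Nr2f2 in 3.67%. The median depth was 4977 UMIs in venous, 3238 in other endothelial, 4916 in arterial-marker cells and 3566 in microglia, so shares of cells with a UMI and the rule itself depend in part on depth.

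Most members stood close to the edge of the rule. The marker sum was exactly 3 in 7130 cells (36.0%) and 4 in 4164 (21.1%), and it was 10 or more in 1730 (8.75%). Just outside it, 12198 endothelial cells had a sum of 2 above the arterial sum, 307 reached 3 but tied with the arterial genes, and 15 were left out by Plvap alone. One marker was detected in 25.4% of members, a pair in 49.0%, 3 in 24.9% and all 4 in 0.763%. The members are therefore a range cut from a continuous score, and 3805 of them (19.2%) also held an arterial UMI.

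Among the 4 markers, Slc38a5 alone had the most UMIs in 9814 members (49.6%), Vwf in 5332 (27.0%), Nr2f2 in 2385 (12.1%) and Lrg1 in 9, and 2239 (11.3%) were tied. The mix differed between bins. In ATV-TfR, Vwf led in 56.8% of 37 low cells, 43.2% of 373 medium cells and 24.3% of 6432 high cells, while Slc38a5 led in 13.5%, 29.8% and 52.7%. The low-bin shares rest on few cells: in the libraries of 21 and 16 cells Vwf led in 47.6% and 68.8%, Slc38a5 in 19.0% and 6.25% and Nr2f2 in 19.0% and 0%. In control IgG, Vwf led in 43.5% of 1848 low cells and 28.5% of 421 negative cells. In ATV-CD98hc, Vwf led in 19.1% of 251 low, 24.97% of 4894 medium and 25.1% of 5489 high cells. Slc38a5 led there in 45.8%, 48.8% and 55.9%, and Nr2f2 in 25.9%, 15.1% and 8.40%, against 10.8%, 15.8% and 12.0% for Nr2f2 in ATV-TfR. These shares are descriptive, because the rule used the same genes.

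**Figure D1:**
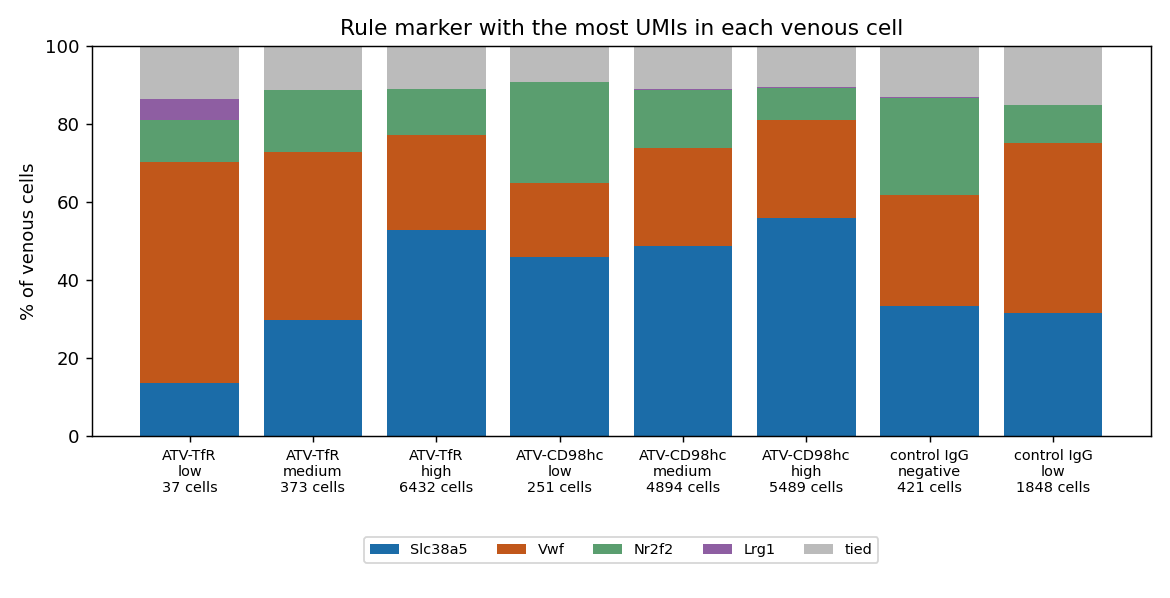
Share of venous cells (percent, y axis) in which each rule marker alone had the most UMIs, one stacked bar per group with its number of cells. The Vwf share falls from 56.8% to 24.3% between the ATV-TfR low and high bars, and is 43.5% in the control IgG low bar. Groups of 3 to 14 cells are not drawn.

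Cells led by Vwf and cells led by Slc38a5 differed in the same direction in every pool for most genes examined, after cells with 3 or more UMIs of the pericyte genes Vtn, Pdgfrb, Abcc9, Higd1b and Notch3 were left out. Il1r1, the interleukin 1 receptor, was 223 ± 129 CPM (SD, 6 pools) in Vwf-led and 95.7 ± 45.6 in Slc38a5-led cells and higher in Vwf-led cells in 6 of 6 pools. Vcam1, which holds leukocytes to the wall, was 144 ± 73.8 against 55.6 ± 22.7 CPM, also in 6 of 6. Nrp2 (142 against 77.3 CPM), Ptgs2 (22.97 against 7.07), Lcn2 (28.2 against 7.67) and the chemokine-binding receptor Ackr1 (6.13 against 0.590) followed the same order in 6 of 6 pools. The barrier genes ran the other way. Mfsd2a, the lysolipid transporter that restrains vesicle traffic, was 253 ± 76.3 in Vwf-led and 316 ± 66.3 CPM in Slc38a5-led cells, and Car4 1136 ± 168 against 1620 ± 253, each lower in Vwf-led cells in 6 of 6 pools. Tfrc was likewise lower in Vwf-led cells (419 ± 149 against 509 ± 202 CPM), as were Slc3a2 (470 against 548) and Slc7a5 (978 against 1078). The lactate transporter Slc16a1 (535 against 538 CPM) was higher in Vwf-led cells in 3 of 6 pools. These sums mix bins, which differ in the share of Vwf-led cells and in the level of several of these genes. Within the 13 libraries that held at least 20 cells of both classes, none of them an ATV-TfR low library, Il1r1 was higher in Vwf-led cells in 13, Nrp2 in 12, Ptgs2 in 11, Vcam1 in 10, Lcn2 in 10 and Ackr1 in 8. Slc3a2, Slc7a5 and Car4 were lower in 13 of the 13, and Tfrc and Mfsd2a in 12.

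Nr2f2-led cells stood apart by their pericyte RNA: 44.4% of them held at least 3 pericyte UMIs, against 7.94% of Slc38a5-led and 5.95% of Vwf-led cells. Over all members the share was 12.4%, against 3.98% of other endothelial and 17.9% of arterial-marker cells. No doublet caller was run, and whether these barcodes hold a pericyte beside the endothelial cell was not tested.

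A small set of 97 members had a UMI of Ackr1, a gene of postcapillary venules and veins; the set was picked after its values were seen, and it is described without a test. These cells held 1640 CPM of Vwf against 293 in the other 19682 members, 1018 of Vcam1 against 62.3, 628 of Il1r1 against 102, 784 of Lcn2 against 10.6 and 129 of Ptgs2 against 8.17. Their median depth was 5679 against 4975 UMIs. Mfsd2a stood at 82.2 CPM against 301. These values pool all bins and treatments. By treatment, Mfsd2a was 71.2 against 311 CPM in ATV-TfR and 154 against 316 in ATV-CD98hc. In control IgG it was 13.5 (2 UMIs in 26 Ackr1 cells) against 200. Because Tfrc and the share of Ackr1 cells both differ between bins, Tfrc was compared within bins. In the ATV-TfR high bin it was 133 CPM (21 UMIs in 21 Ackr1 cells) against 257 in the other members, in the ATV-CD98hc medium bin 258 (40 UMIs in 21 cells) against 531, and in the control IgG low bin 76.1 (11 UMIs in 25 cells) against 569. The other bins held 15 or fewer Ackr1 cells, and in the ATV-TfR negative bin the 1 Ackr1 cell was above the rest (278 against 148 CPM, from 8 UMIs). Ackr1 cells made up 8 of 37 venous cells (21.6%) in the ATV-TfR low bin, 15 of 373 (4.02%) in its medium bin and 21 of 6432 (0.326%) among its high cells. For ATV-CD98hc the counts were 21 of 4894 medium (0.429%) and 5 of 5489 high cells (0.0911%), and 0 of 251 low cells, which allows a share of cells with a UMI of up to 1.20%. In control IgG they were 25 of 1848 low cells (1.35%) and 0 of 421 negative cells, which allows up to 0.713%. Both limits cover counting error only, and the venous cells of the ATV-CD98hc low libraries were shallow (median 2911 and 3232 UMIs, against 4905 in the control IgG negative library). The share in microglia, which should lack the gene, was 0.04998%.

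Compared with other endothelial cells, members had higher levels of genes known from veins that the rule did not use. The comparison, here and in the next paragraph, is a description, since the rule chose the cells on this contrast. It sums all bins of a pool, and the classes differ in their mix of bins. Control IgG pool 2, for example, held 1189 low and 421 negative venous cells, against 1157 and 2243 other endothelial cells. The part of this mix in the differences was not tested. Of 14 further venous and venular genes, taken at any level, 10 were higher in all 6 pools and 2 lower. Among 4255 genes of at least 50 CPM outside the rule, 17.6% were higher and 18.9% lower. Il1r1 was 102 and 77.7 CPM in the ATV-TfR pools, 111 and 61.7 in the ATV-CD98hc pools and 271 and 234 in the control IgG pools, and 18.1 to 64.1 in other endothelial cells of the same pools. The control IgG pools were the highest in both classes. Vcam1 averaged 91.6 ± 52.4 CPM in members and 14.9 in other endothelial cells, but 115 in arterial-marker cells. Nrp2 averaged 98.8 ± 47.1 against 42.5, the actin-binding gene Tmsb10 1506 ± 357 against 868 and the lysosomal protease gene Ctsc 160 ± 49.9 against 86.5. Ackr1 (3.19 ± 2.34 CPM) and the siderophore-binding protein gene Lcn2 (19.5 ± 15.3) were low on average and close to absent elsewhere (0.0739 and 1.68). Emcn and Plat were the pair that was lower, by medians of -0.26 and -0.06 log2 units.

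Arterial genes outside the rule were lower in members in all 6 pools for 9 of 16 and higher for 1. The lower ones included Stmn2 (22.8 ± 9.002 against 58.7 CPM), Hey1 (20.9 ± 11.4 against 42.9), Efnb2 (18.6 ± 7.62 against 35.2) and the chemokine gene Cxcl12 (1457 ± 669 against 2589). Barrier transport genes were mixed: Car4 (1379 ± 234 against 1098 CPM) and Slc16a1 (502 ± 59.8 against 429.8) were higher on average, Mfsd2a (273 ± 69.9 against 334) and Rgcc (316 ± 107 against 491) lower. The shuttle receptors differed little between the classes. Tfrc averaged 443 ± 164 CPM in members and 417 in other endothelial cells, Slc3a2 488 ± 174 against 467, and the neonatal Fc receptor gene Fcgrt 584 ± 100 against 600.1, whereas arterial-marker cells held 191, 280.0 and 381 CPM. Pericyte genes were higher in members by a median of 1.60 log2 units over the list of 6 in the median pool, but all 6 were lower in members of the first control IgG pool, among them Vtn (130 against 263 CPM) and Pdgfrb (15.0 against 22.7).

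**Figure D2:**
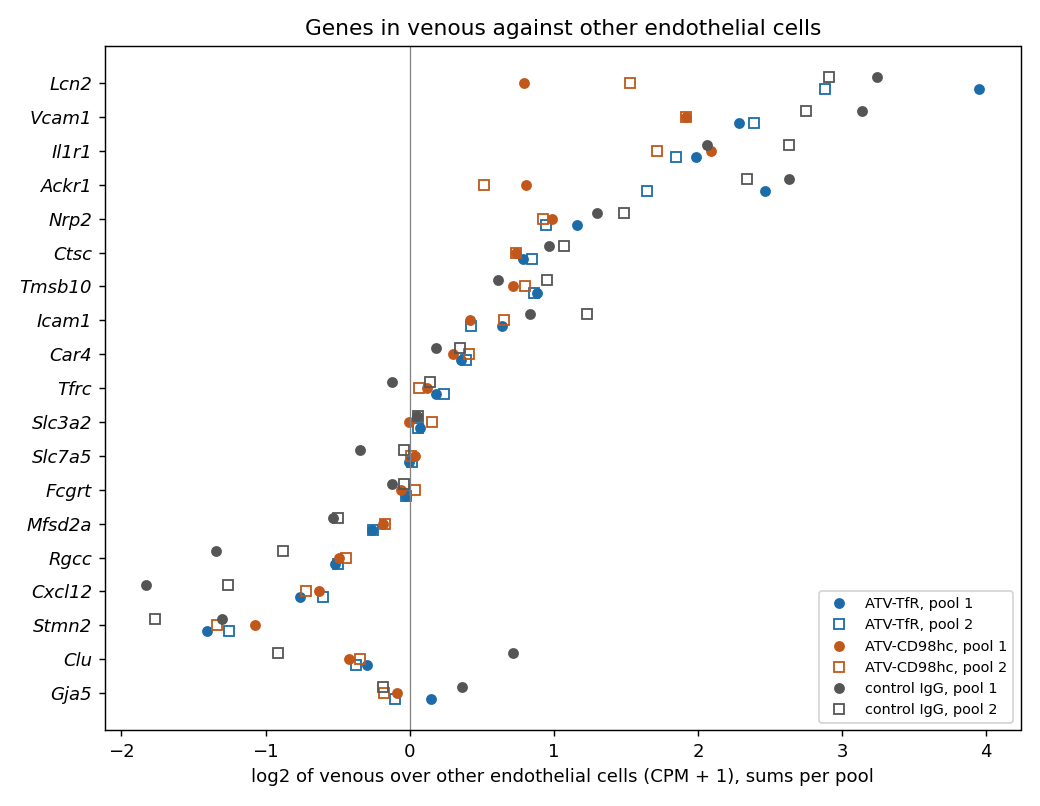
Log2 ratio of venous over other endothelial cells (x axis, CPM + 1 of sums per pool) for selected genes, 1 point for each of 6 pools, colour for treatment. Vcam1, Il1r1 and Nrp2 lie to the right of 0 in every pool, Cxcl12 and Stmn2 to the left, and Tfrc and Slc3a2 close to 0.

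The share of venous cells among endothelial cells tells how the class was spread over the antibody bins. In ATV-CD98hc it rose with AF647: 3.61% and 5.26% in the negative libraries, 3.59% and 5.56% in the low, 14.9% and 14.2% in the medium, and 23.8% and 24.8% in the high. The slope of the log odds was 0.67 per bin (two-sided exact permutation of bin labels, 2520 arrangements, p = 0.00397, adjusted p = 0.00952 over 6 trends). In ATV-TfR the shares were 8.42% and 9.09%, 5.04% and 5.67%, 5.20% and 6.93%, then 17.4% and 18.9%. The high libraries stood above the rest, but over all 4 bins the slope of 0.24 did not pass (exact permutation, adjusted p = 0.311). The small negative libraries of ATV-TfR rest on 8 and 6 venous cells, with exact 95% binomial intervals of 3.71% to 15.9% and 3.41% to 18.7%. Those of ATV-CD98hc rest on 3 and 3, with intervals of 0.752% to 10.2% and 1.10% to 14.6%. Such intervals cover counting error only, and each library had the same weight in the slopes.

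The control IgG low libraries had the highest venous shares of the series, 59.3% and 49.1% of 1111 and 2422 endothelial cells. The negative library had 13.9% (exact interval 12.7% to 15.2%), the medium libraries 6.90% and 20.5% (2 and 9 venous cells) and the high libraries 9.09% and 14.3% (1 and 2 cells). No trend over the bins passed (slope -0.37, exact permutation, adjusted p = 0.430). About 1% of live cells were AF647 positive in control IgG against 30% in ATV-TfR and 20% in ATV-CD98hc, so the low gate of control IgG took a small part of its cells. The endothelial cells of these low libraries were also deeper (median 4473 and 5149 UMIs) than those of other groups with over 200 endothelial cells (2333 to 4008). In an alternative, cells of at least 1500 UMIs were thinned to 1500 each and shallower cells were left out. The venous share was then 22.7% and 13.1% in control IgG low, 2.45% in control IgG negative, 4.22% and 5.38% in ATV-CD98hc high, 2.25% and 3.40% in its medium, 3.94% and 3.58% in ATV-TfR high and 1.90% and 2.72% in its medium libraries. The cells left out were 3.60% and 1.32% of control IgG low, 14.7% and 6.75% of ATV-CD98hc low and 0.849% and 2.65% of ATV-CD98hc high. The endothelial step was not repeated after thinning.

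The ratio of venous to arterial-marker cells changed with AF647 in both ATVs. Summed over libraries it was 0.130 in the negative, 0.105 in the low, 0.346 in the medium and 3.07 in the high bin of ATV-TfR, and 0.0822, 0.257, 1.89 and 4.53 in ATV-CD98hc. In ATV-TfR it was thus lower in the low than in the negative bin, and most of the increase lay between the medium and the high bin. A line fitted to the log ratio over the 4 bins had a slope of 1.05 per bin in ATV-TfR (p = 0.00476 by exact permutation, adjusted p = 0.00952). In ATV-CD98hc the slope was 1.34 (exact permutation, p = 0.000794, the smallest that 2520 arrangements can give, adjusted p = 0.00476). Arterial-marker cells made up 67.2% ± 1.32 (SD, n = 2) of endothelial cells in the ATV-TfR negative libraries, 50.7% ± 0.498 in the low and 5.90% ± 0.163 in the high. In control IgG the ratio was 1.17, 15.3, 1.22 and 1.5, with no trend past the threshold (-0.37, adjusted p = 0.521). Thinning to 1500 UMIs kept both called slopes of the ratio (1.14 and 1.53) and that of the ATV-CD98hc share (0.41, exact permutation, adjusted p = 0.010), and turned the ATV-TfR share to -0.063. The thinned negative libraries held 1 and 0 venous cells in ATV-CD98hc and 2 and 3 in ATV-TfR. With a marker sum of at least 5 in place of 3, the ATV-CD98hc share had a slope of 0.51 and no longer passed (exact permutation, adjusted p = 0.152). Leaving out cells with pericyte UMIs brought the ATV-TfR share to a slope of 0.43 (exact permutation, adjusted p = 0.049). This setting left 6 and 1 venous cells in the ATV-TfR negative libraries, where the share went from 8.42% and 9.09% to 7.5% and 1.89%. The slope thus leans on a library with 1 venous cell.

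**Figure D3:**
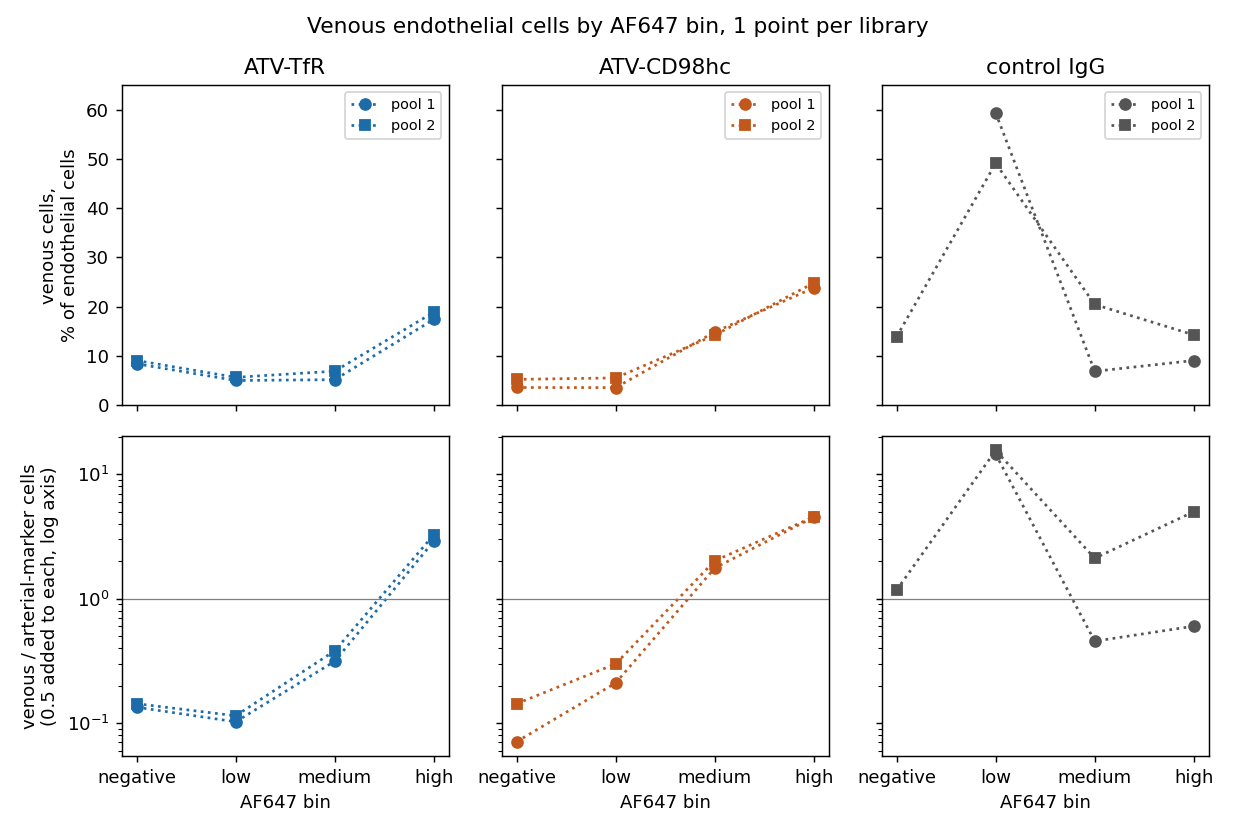
Venous cells as percent of endothelial cells (upper, linear axis) and the ratio of venous to arterial-marker cells (lower, log axis, 0.5 cells added to each count) against AF647 bin, 1 point per library and 1 panel per treatment. The ratio climbs from the low to the high bin in both ATVs (summed over libraries, 0.105 to 3.07 in ATV-TfR), and control IgG has its highest points in the low bin (59.3% and 49.1%).

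Tfrc had its lowest levels in ATV-TfR and Slc3a2 in ATV-CD98hc, but the edgeR tests of both genes between treatments over all bins did not pass. Tfrc (ENSMUSG00000022797, chromosome 16, 32608920 to 32632794, plus strand, GRCm38) was 85.4 and 172 CPM in the ATV-TfR low, 90.7 and 168 in the medium, and 238 and 274 in the high libraries. In ATV-CD98hc it was 287 and 308 in the low, 607 and 439 in the medium, and 682 and 493 in the high libraries, and in control IgG 522 in the negative and 478 and 602 in the low. Every ATV-TfR library of over 10 venous cells lay below every ATV-CD98hc and control IgG library of that size. Slc3a2 (ENSMUSG00000010095, chromosome 19, 8706882 to 8723369, minus strand) was lowest in ATV-CD98hc, with an overlap: 209 to 364 CPM in the low, medium and high libraries of ATV-CD98hc, 316 to 668 in those of ATV-TfR, and 465 to 591 in the control IgG negative and low libraries. Tfrc had a UMI in 75.0% and Slc3a2 in 81.3% of members, against 4.45% and 42.3% of microglia.

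Summed over all bins of a pool, Tfrc was 229 and 281 CPM after scaling between pools (TMM) in ATV-TfR, 611 and 480.0 in ATV-CD98hc and 488 and 552 in control IgG. The log2 difference was -1.03 between ATV-TfR and control IgG (edgeR quasi-likelihood test, adjusted p = 0.433) and did not pass, whereas it did with DESeq2 (-1.03, adjusted p = 0.00096) and with the high bins left out (-2.04, adjusted p = 0.013). Slc3a2 did not pass between ATV-CD98hc and control IgG (-0.97, adjusted p = 0.904) or between the ATVs (1.25, adjusted p = 0.997), and DESeq2 called both (adjusted p = 0.031 and 0.0020). Of 15311 genes, 0 (0%) passed in each of the 3 pairs of treatments, with 920, 515 and 280 genes at an unadjusted p below 0.05 for ATV-TfR against control IgG, ATV-CD98hc against control IgG and the ATVs against each other. DESeq2 called 108, 60 and 9. With the high bins left out 1012, 0 and 37 genes passed, and with the low and medium bins alone 2237, 1218 and 1147. The pools differ in how many venous cells each bin gave, and without control IgG replicate 2 the first and second comparisons called 407 and 325 genes. Tfrc of other endothelial cells was close to that of venous cells in the high libraries (220.5 and 244 CPM in ATV-TfR, 663 and 492 in ATV-CD98hc). In the ATV-TfR low libraries it was 47.4 and 61.7 CPM, below the 85.4 and 172 of the 21 and 16 venous cells, and in the medium libraries 103 and 121 against 90.7 and 168. By the edgeR test, 0 of 16469 genes differed between venous and other cells in their treatment differences (312, 246 and 56 at an unadjusted p below 0.05, DESeq2 0 in each). This test did not pair the venous and other sums of a pool. The knock-in alleles and the antibody coincide, and how the knock-in changes the reads assigned to Tfrc and Slc3a2 was not tested.

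**Figure D4:**
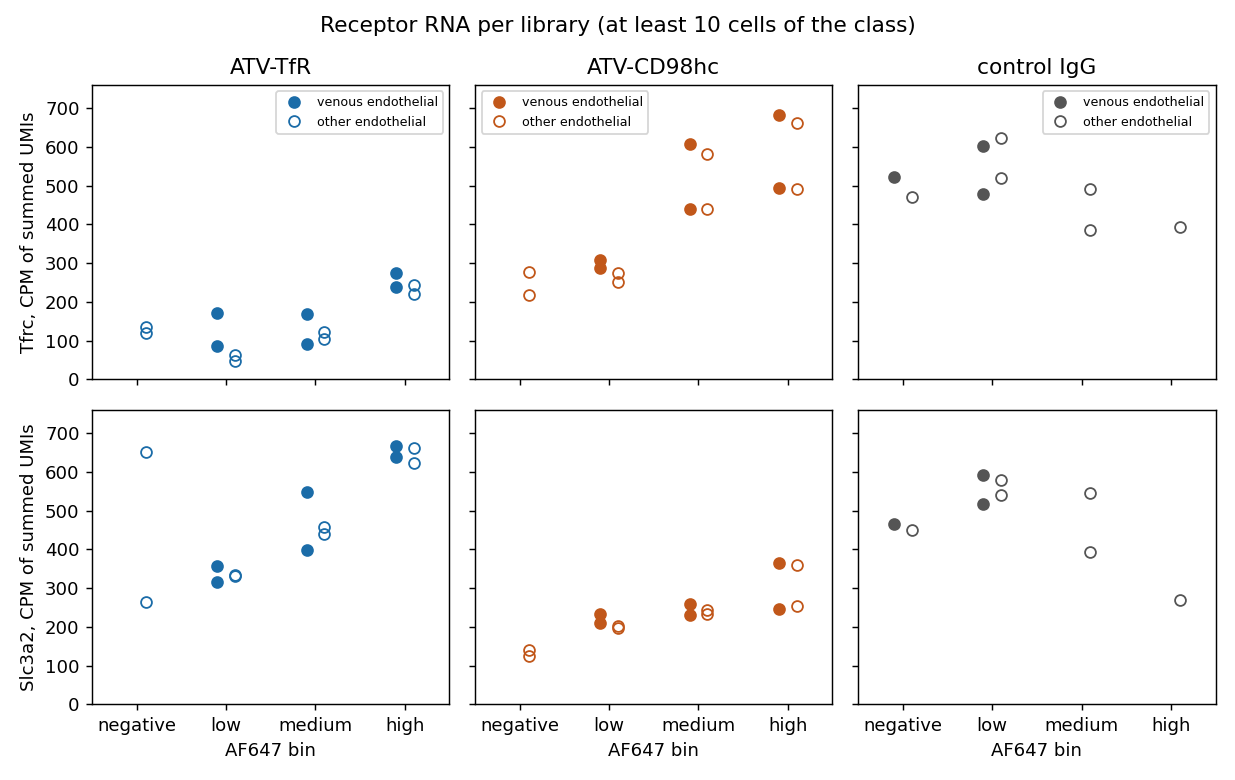
Tfrc (upper) and Slc3a2 (lower) in CPM of summed UMIs against AF647 bin, 1 point per library and class of at least 10 cells, filled for venous and open for other endothelial cells, 1 column of panels per treatment. Tfrc is below 300 CPM in all ATV-TfR points, Slc3a2 below 400 in all ATV-CD98hc points, and both classes lie near each other in the high bins.

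Within ATV-TfR, venous cells of the high bin were compared with those of the negative and low bins summed per pool (called dim, 29 and 22 cells). The venous genes Ackr1, Vcam1, Il1r1 and Nrp2 were lower and several barrier transport genes higher in the high bin. Of 10 acute inflammation genes 0 passed by edgeR (median -0.22, 3 at an unadjusted p below 0.05), and of 10 leukocyte adhesion and chemokine genes 2 rose and 3 fell. Of 15 arterial genes outside the rule, 8 were at an unadjusted edgeR p below 0.05, against 2542 of all 14704 genes. Arterial-marker cells made up 67.2% and 50.7% of endothelial cells in the ATV-TfR negative and low bins (means of 2 libraries). Whether the dim venous cells lean towards an arterial state was not tested. Of 14704 genes, 431 passed (2.93%; edgeR, adjusted p below 0.05), 118 higher (0.803%) and 313 lower (2.13%), and the median over all genes was 0.20 log2 units. Scaling by RLE factors gave 50 higher and 337 lower, DESeq2 106 and 924, and a replicate block 1124 in all. Leaving out either ATV-TfR pool left 1 unit each of dim, medium and high cells, and most of the 431 calls were lost.

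Of 13 venous genes outside the rule that were tested, 5 fell and 1 rose in the high bin (median -1.40). Values below are TMM-scaled CPM of the first and second pool. Ackr1 was 145 and 65.2 CPM in dim, 16.9 and 26.4 in medium and 4.17 and 0.511 in high cells, a log2 difference between high and dim of -5.48 (SE 0.76, adjusted p = 0.0079). Its groups did not overlap, and it was 0 in both ATV-CD98hc dim units. Vcam1 went from 368 and 326 over 211 and 171 to 74.4 and 64.3 CPM (-2.32, SE 0.29, adjusted p = 0.0031), and control IgG dim cells held 200.2 and 115. Il1r1 was 233 and 396, then 172 and 124, then 102 and 81.3 CPM (-1.78, SE 0.34, adjusted p = 0.016). The semaphorin and VEGF receptor gene Nrp2 (-1.49, SE 0.26, adjusted p = 0.011) fell as well. The gene that rose was Plat, which encodes tissue plasminogen activator (150.2 and 139.7 against 297 and 346 CPM, 1.15, adjusted p = 0.031). Over all bins, Plat was slightly lower in members than in other endothelial cells, and Vcam1 averaged higher in arterial-marker cells than in members. Ptgs2, the inducible cyclooxygenase (29.1 and 51.2 against 7.84 and 6.87 CPM), the elastin gene Eln (43.6 and 65.2 against 8.29 and 8.80) and the growth factor gene Vegfc (58.1 and 74.5 against 11.8 and 10.3) fell by 2.45, 2.67 and 2.59 on the log2 scale. Leaving out the cells with pericyte UMIs, or taking the low bin alone as the dim group, brought the second pool to 15 or 16 dim cells, under the minimum of 20 per unit, so 1 dim unit remained. With a minimum of 10, which keeps both pools, these 8 genes passed in both settings.

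The rule genes, given without a test because they chose the cells, were 610.5 and 1272 CPM in dim, 463 and 584 in medium and 274 and 299 in high cells for Vwf. Lrg1 was 174 and 130.4, then 55.2 and 29.7, then 5.69 and 1.25 CPM. Slc38a5 (431 and 592, 314 and 334, 484 and 454 CPM) had no such order, and Nr2f2 was 305 and 275, 213 and 242, 189 and 171. The high and the dim cells thus differed in which marker admitted them.

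Of 13 capillary and barrier transport genes, 5 rose and 0 fell (median 0.86). The 8 endothelial genes of the rule, which get no test, had a median of 0.73. Mfsd2a was 77.5 and 83.8 CPM in dim, 126 and 175 in medium and 322 and 372 in high cells (2.11, SE 0.33, adjusted p = 0.0092). Rgcc, a regulator of the cell cycle enriched in capillaries, was 116 and 97.8, 242 and 292, 435 and 467 (2.08, SE 0.31, adjusted p = 0.0080). Both genes increased from bin to bin in each pool. Spock2 (1.35), the organic anion transporter genes Slc22a8 (1.10) and Slco1c1 (0.87) rose too. Of the 14 amino acid and stress genes, the CD98hc partner Slc7a5 (591 and 382 in dim, 945 and 1179 CPM in high cells; 1.13, SE 0.26, adjusted p = 0.034) and Slc7a1 (1.04) rose, and the iron exporter gene Slc40a1 rose among 14 iron genes (0.87, adjusted p = 0.048). Cxcl12 rose from 654 and 606 over 850.4 and 1312 to 1886 and 2612 CPM (1.84, adjusted p = 0.012), and Apcdd1 was the 1 of 12 Wnt barrier genes past the threshold (0.88, median of the list 0.68). Tfrc was 92.1 and 172 in dim and 251 and 309.7 CPM in high cells (1.08, SE 0.33, adjusted p = 0.10) and did not pass, nor did Slc3a2 (0.86, adjusted p = 0.12). Both passed with the pool as a replicate block (adjusted p = 0.0038 and 0.0079).

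Further genes with large increases were the guanine exchange factor gene Tiam1 (43.6 and 55.9 against 197 and 221 CPM; 2.07, SE 0.25, adjusted p = 0.0031), the cell cycle inhibitor gene Cdkn2b (2.65), Inka1 (2.17) and Lrrn3 (2.08). The interferon-responsive genes Rsad2 (9.69 and 14.0 against 71.3 and 78.2 CPM; 2.65, SE 0.49) and Cmpk2 (2.36) rose, and of the 12 genes of the interferon list Ifit1 alone (1.84). The transcription factor genes Klf4 (1.25) and Jun (1.17) rose among 14 immediate early and heat shock genes. Of the 30 called genes named for this comparison, 17 did not pass without the cells with pericyte UMIs and 13 did not with the low bin alone, each with 1 dim unit. With at least 10 cells per unit, and so both pools, 0 of 30 were lost by edgeR in the first setting and 1 in the second, Cmpk2. Genes of other brain cells fell beside them: Clu, which astrocytes express, by 1.92, and the neuronal and glial receptor genes Gabbr2 by 3.84 and Gria1 by 3.49, with 2 of 6 astrocyte markers past the threshold (list median -2.49). Aqp4, a defining marker of astrocytes that the rule used, is given without a test, at 102 and 65.2 CPM in dim and 19.8 and 12.4 in high cells. The part of this RNA in the changes of venous genes was not tested.

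**Figure D5:**
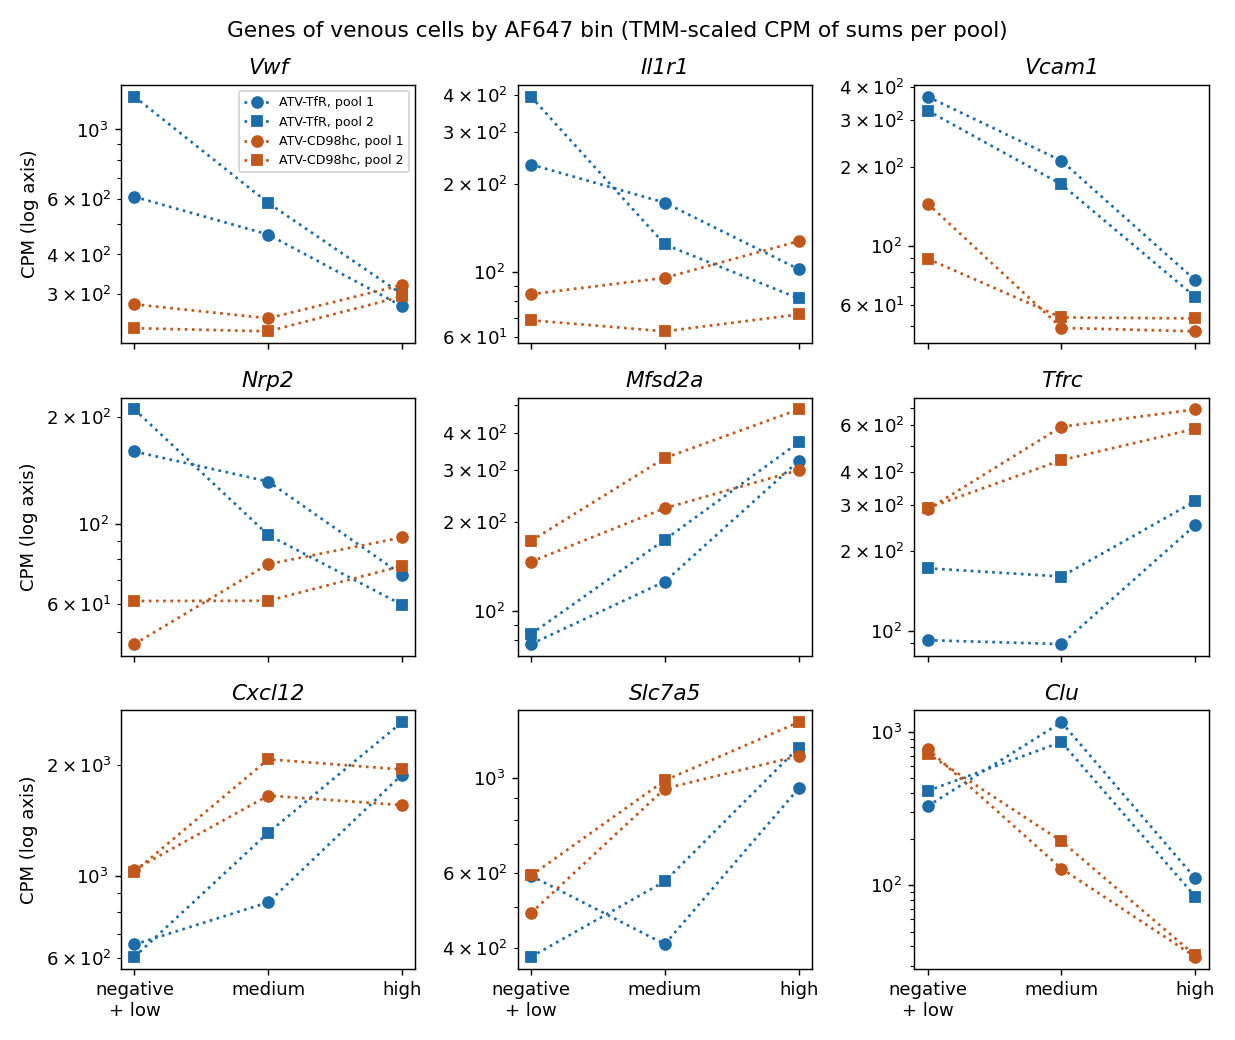
TMM-scaled CPM (log axis) of selected genes in venous cells of the dim, medium and high bins, 1 line per ATV pool. In ATV-TfR, Vcam1 and Il1r1 go down and Mfsd2a goes up over the bins in both pools, from 77.5 and 83.8 to 322 and 372 CPM for Mfsd2a.

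High and medium cells of ATV-TfR (168 and 205 medium cells) differed in 2266 of 14704 genes (15.4%), 663 higher (4.51%) and 1603 lower (10.9%), and the replicate block gave 4185. RLE factors gave 241 higher and 1758 lower, DESeq2 381 and 2003. Without ATV-TfR replicate 1 or 2 the count was 191 or 545. Tfrc rose from 89.0 and 160.4 to 251 and 309.7 CPM (1.17, SE 0.29, adjusted p = 0.015). Slc7a5 (1.11), Slc40a1 (1.06), Mfsd2a (1.21), Car4 (1.25) and Spock2 (1.15) rose, as did 8 of 12 Wnt barrier genes (median 0.77), among them Axin2 (47.3 and 50.6 against 98.9 and 119.6 CPM; 1.16) and Tcf7 (1.26). Among the largest increases were Ism1 (1.94), Tiam1 (1.64) and the intermediate filament genes Synm (1.58) and Nes (1.55). Of 13 genes of the venous list, Ackr1 (-3.20, adjusted p = 0.0093), Vcam1 (-1.46, adjusted p = 0.0019) and Nrp2 (-0.77, adjusted p = 0.037) fell. Emcn (1.03) and Plat (0.72) rose, the pair of this list that was lower in members than in other endothelial cells. Nrp2 did not pass without the cells with pericyte UMIs. Cxcl12 rose by 1.06. The 8 endothelial genes of the rule, without a test, had a median of 0.77. Of 6 astrocyte markers outside the rule 5 fell (median -3.46), and Clu fell by 3.37, so the medium cells differ in astrocyte RNA as well.

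In ATV-CD98hc the dim units held 96 and 161 venous cells. High and dim cells differed in 2774 of 14704 genes (18.9%), 998 higher (6.79%) and 1776 lower (12.1%); the replicate block gave 4454, and leaving out ATV-CD98hc replicate 1 or 2 gave 1521 or 931. RLE factors gave 425 higher and 1925 lower, DESeq2 562 and 2218. The increases were broad and of moderate size: 10 of 13 barrier transport genes (median 0.94), 11 of 12 Wnt barrier genes (median 0.87), 6 of 11 junction genes (median 0.81) and 7 of 12 interferon and antigen presentation genes (median 0.78) rose, and 0 fell in these lists, against a median of 0.12 over all genes. The 8 endothelial genes of the rule, which get no test, had a median of 0.91.

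By name, Tfrc was 288 and 292 CPM in dim, 592 and 443 in medium and 689 and 582 in high cells (1.13, SE 0.29, adjusted p = 0.013), and the knock-in gene Slc3a2 206 and 199, 224 and 260.5, 248 and 430.0 (0.74, SE 0.27, adjusted p = 0.073; 0.0071 with a replicate block). Slc7a5 rose from 484 and 592 to 1126 and 1351 CPM (1.20, SE 0.25, adjusted p = 0.0040). Slc40a1 (0.92), Mfsd2a (147 and 173 against 300.3 and 482 CPM; 1.28, adjusted p = 0.0041), Spock2 (1.30), the efflux pump gene Abcb1a (1.11) and the glucose transporter gene Slc2a1 (0.88) rose. Ctnnb1 (1.43), Apcdd1 (1.16), Axin2 (67.3 and 66.0 against 131 and 132 CPM; 0.98) and Lef1 (0.83) represent the Wnt list, Ocln (0.90) the junctions and Kdr (1.20) the VEGF receptors. The largest increases among well expressed genes included Rflnb (1.90), Ism1 (1.75), Slc39a8 (58.9 and 61.1 against 177 and 189 CPM; 1.61), Synm (98.8 and 113 against 323 and 327; 1.61, SE 0.21, adjusted p = 7e-05) and Cd40 (1.57).

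Of 13 genes of the venous list outside the rule, Emcn (0.87) and Plat (0.86) rose. Vcam1 fell from 145 and 89.7 over 49.1 and 53.8 to 47.7 and 53.3 CPM (-1.19, SE 0.28, edgeR, adjusted p = 0.0090). Over all bins, however, Emcn and Plat were lower in members than in other endothelial cells. Vcam1 averaged 115 CPM in arterial-marker cells against 91.6 in members. Of the 24 called genes named for this comparison, Vcam1, Emcn and Slc2a1 did not pass without the cells with pericyte UMIs, and 11 did not with a marker sum of at least 5, Tfrc, Vcam1, Plat and Axin2 among them. Vwf stayed between 228 and 319.9 CPM in all 6 ATV-CD98hc units and Lrg1 at or below 5.00. The largest decreases were of genes of other brain cells: all 6 astrocyte markers (median -5.61), all 4 oligodendrocyte markers (median -6.21) and 4 of 6 microglia markers fell, with Slc1a2 at -5.59, Mbp at -5.36 and C1qa at -3.26. Aqp4, which the rule used, was 166 and 172 CPM in dim and 4.56 and 2.05 in high cells. Oligodendrocyte RNA was 2155 CPM in the low library of the first pool and 409 in that of the second. Its part in the broad increase was not tested.

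Between the medium and high bins of ATV-CD98hc, venous cells differed almost only by lower values: 428 genes lower (2.91%) and 1 higher (0.0068%) of 14704, 2.92% in all. The higher one, H2-Eb1, a class II antigen presentation gene, was named after its values were seen (3.02 and 3.46 against 13.5 and 7.49 CPM; 1.69, adjusted p = 0.041). Of the 6 astrocyte markers 5 fell, among them Slc1a2 (-3.24), Cldn10 (-3.42) and Gfap (-2.41), and so did Clu (-2.22), which astrocytes also express. Tfrc (0.30, adjusted p = 0.85) and Slc3a2 (0.48, adjusted p = 0.68) did not pass. The replicate block gave 1416 calls, and leaving out either pool of either ATV gave 6 to 10.

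The change from dim to high differed between the 2 ATVs for 3 of 14704 genes (0.0204%), 2 higher (0.0136%) and 1 lower (0.0068%). Myof, a membrane repair gene, went from 107 and 130.4 to 37.4 and 31.96 CPM in ATV-TfR and from 21.0 and 32.4 to 51.5 and 49.0 in ATV-CD98hc, a difference of -2.63 (SE 0.37, adjusted p = 0.020), and control IgG dim cells held 101.2 and 88.0. Mt3, a metallothionein gene of astrocytes, went from 208 and 130.4 to 67.8 and 64.6 CPM in ATV-TfR and from 597 and 499.7 to 23.1 and 23.1 in ATV-CD98hc (3.21, SE 0.40, adjusted p = 0.011). The third, S100a8, is described below. Il1r1 (-2.18, adjusted p = 0.21), Nrp2 (-2.11, adjusted p = 0.10) and Vcam1 (-1.13, adjusted p = 0.51) did not pass, so a difference between the ATVs was not shown for them. The replicate block gave 342 genes, and leaving out either ATV-TfR pool gave 0. Without the cells with pericyte UMIs 0 passed, also when a minimum of 10 cells kept both ATV-TfR pools, and the low bin alone gave 0 with 1 ATV-TfR dim unit and 21 with both.

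A fit that did not pair the classes of a pool compared the change from dim to high between venous and other endothelial cells. For ATV-TfR the change differed in 7 of 16277 genes (0.043%), all 7 lower in the venous change. Among them were Cd14, a co-receptor for bacterial lipopolysaccharide (-6.48, adjusted p = 0.0044), Myof (-3.10), the sphingosine-1-phosphate transporter gene Spns2 (-2.46), the zinc and manganese transporter gene Slc39a8 (-1.79), Net1 (-1.70) and Kbtbd11 (-1.39). Cd14 was 96.9 and 102 CPM in venous dim cells of ATV-TfR and 5.24 and 3.29 in high cells, and 0 and 2.21 against 3.4997 and 3.12 in other endothelial cells. In ATV-CD98hc, 0 of 16277 genes passed (470 at an unadjusted p below 0.05, DESeq2 0), the replicate block gave 4, and for ATV-TfR it gave 51. Leaving out any ATV pool in turn left 0 or 1 call for ATV-TfR; without the cells with pericyte UMIs there were 3 with 1 ATV-TfR dim unit, and 4 with both (at least 10 cells per unit), where Cd14 and Myof passed of the 6 genes named here.

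The high bins of the ATVs, with 3236 and 3196 venous cells in ATV-TfR and 2330 and 3159 in ATV-CD98hc, differed in 3 of 14704 genes (0.0204%), which are genes of neutrophil granules and cytosol and were named after their values were seen. ATV-TfR high venous cells held 838 and 899 UMIs of S100a8, 1390 and 1347 of S100a9 and 643 and 415 of Ngp. ATV-CD98hc high cells held 0 and 1 UMI of S100a8 and 0 of the other genes in both pools, which makes S100a9 at least 772-fold and Ngp at least 298-fold higher against a floor of 3 UMIs over the group. These bounds rest on few barcodes: 40 of 3236 and 10 of 3196 cells had a UMI of S100a8. In the second pool 1 cell held 890 of 899 UMIs of S100a8, 1332 of 1347 of S100a9 and 413 of 415 of Ngp, and in the first the largest shares of 1 cell were 444 of 838, 723 of 1390 and 351 of 643. Venous cells of the control IgG low (S100a9 26.7 and 51.6 CPM) and ATV-CD98hc medium libraries (8.72 and 23.2) carried S100a9 too. For the same comparison DESeq2 called 21 genes, no filter on low counts 416, and leaving out control IgG replicate 1 or 2 gave 219 or 178. After cells with pericyte UMIs were left out, and with a marker sum of at least 5, 0 genes passed. Tfrc (-1.18, adjusted p = 0.26) and Slc3a2 (1.08, adjusted p = 0.30) had non-overlapping values in the 2 high bins but did not pass, whereas DESeq2 called both (adjusted p = 0.030 and 0.014), and both also passed with no filter on low counts and without either control IgG replicate.

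Control IgG pool 2 allows a view of venous cells sorted as AF647 low against negative in the same mice, with 1 library each and no test. The low library held 1189 and the negative library 421 venous cells. Counted were 219 listed genes with at least 30 UMIs over both libraries, rule genes and markers of other brain cells included. Of these, 16 were at least 2-fold higher and 47 at least 2-fold lower in the low library. No ratio was taken at 3 or fewer UMIs in the negative library, so 16 is a lower limit. The median log2 ratio was 0.18, without the genes of 3 or fewer UMIs in either library. Il1r1 (281 against 98.0 CPM), Nrp2 (186 against 68.9), Vcam1 (144 against 40.2) and Icam1 (53.9 against 22.7) were 2.38 to 3.57 times as high in the low library. Tfrc (ratio 1.15), Slc3a2 (1.11) and Mfsd2a (0.893) differed less, and Cxcl12 was lower (743 against 1359 CPM). The negative library carried more RNA of other cells, with 928 CPM of Slc1a2 against 2.09 in the low library and 1188 of the pericyte gene Vtn against 155. Vwf, whose UMIs were used to choose these cells, is given as a description, at 578 CPM in the low and 259 in the negative library.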

How the data were processed

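The deposited matrices hold raw UMI counts per gene and barcode from Cell Ranger 7.1.0, per the file headers; the submitters' processing notes also name Seurat 4 and 5 and builds GRCm38 and mm10. The deposited barcode and gene files hold other labels (barcode sequences, gene names), and per the labels each library is 1 pool and bin. The members and gene lists were chosen with earlier results of these data known. Cells were selected by the marker rule in Python 3.11.15, counts were summed per pool and bin, and units of at least 20 cells were tested with edgeR 4.0.16 (quasi-likelihood, TMM scaling, Benjamini-Hochberg adjustment at 0.05 over all genes that passed its filter on low counts). DESeq2 1.42.0 was an alternative. Trends over bins were tested by exact permutation, with 0.5 cells added to each count. Libraries of 1 pool come from the same mice: their deviations from the group means had correlations of 0.0416 to 0.330 in ATV-TfR and 0.0917 to 0.929 in ATV-CD98hc over 5762 genes.

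The named genes were the 4 venous markers (values only, as for all genes of the rule), Tfrc and Slc3a2, up to 8 genes per direction with the largest called differences (average log2 CPM of at least 5, groups not overlapping), called list members, and others said to be chosen after their values were seen. Some genes that these rules name are not reported here. No doublet caller was run, and barcodes were not corrected for free RNA. In data simulated for the ATV-TfR high and dim comparison (13791 genes), 10% of genes changed 2-fold and 90% of genes changed 4-fold were recovered. The part of depth in this recovery was not tested, nor was whether the recovery holds for the measured counts. With 2 pools per treatment, the edgeR p-values rest on the spread between units of a group. The main fit took bins of the same pool as separate, independent units, and the replicate block was an alternative. Comparisons of venous with other endothelial cells likewise took both classes of a pool as independent units. The replicate block of the bin comparisons did not pair the classes. The trend p-values come from bin labels rearranged among the libraries of a treatment, not from the spread between pools.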

Additional observations from a re-analysis of the deposited data

Results flagged for a closer look

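The change from dim to high AF647 differed between the ATVs in venous cells for Mt3 (3.21 log2 units, ATV-TfR minus ATV-CD98hc) and Myof (-2.63). S100a8 was called as well, with a fitted value of 19.93 that depends on the prior count and is no bound, and most of its UMIs were in single barcodes.

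Between venous and other endothelial cells, the same change within ATV-TfR differed by -6.48 for Cd14, -3.10 for Myof, -2.46 for Spns2, -1.79 for Slc39a8, -1.70 for Net1 and -1.39 for Kbtbd11. For Spns2, Slc39a8 and Net1 the larger change was in the other endothelial cells: Spns2 was 10.8 and 8.85 CPM in dim and 60.7 and 68.6 in high cells of that class, and 63.0 and 51.2 against 58.8 and 71.8 in venous cells. These genes rest on 29 and 22 venous dim cells.

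The venous share had slopes of opposite sign in control IgG (-0.37 per bin) and in ATV-CD98hc (0.67) or ATV-TfR (0.24), in each pool. Control IgG pool 1 has no negative library, and pool 2 was nearly flat, with 13.9% in the negative and 14.3% in the high library. The high libraries of control IgG held 1 and 2 venous cells. The ATV-TfR slope turned negative after thinning and with a marker sum of at least 5. The difference between treatments was not tested.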

How the results depend on the processing

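The comparisons with ATV-TfR dim cells rest on 29 and 22 cells, and the part of depth in the counts below was not tested. Leaving out 1 pool at a time (n of calls, lowest to highest) gave 0 to 711 for ATV-TfR high against dim, 191 to 2518 for high against medium, 931 to 3071 and 6 to 746 for the same in ATV-CD98hc, 0 to 199 for the difference of the ATVs, 2 to 219 for the high bins, 0 to 14 for venous against other cells in ATV-TfR, and 0 to 407, 0 to 325 and 0 to 2 for ATV-TfR and ATV-CD98hc against control IgG and the ATVs against each other. Without control IgG replicate 1 or 2 the ATV difference gave 199 and 199, the high bins 219 and 178, and ATV-TfR high against dim 711 and 690; without ATV-CD98hc replicate 1 or 2 the last gave 268 and 281. Slopes left out the same way ran from 0.59 to 0.75 (ATV-CD98hc share), 1.23 to 1.46 and 1.03 to 1.06 (ratio, ATV-CD98hc and ATV-TfR), 0.23 to 0.25 (ATV-TfR share), -1.16 to -0.065 (control IgG share) and -1.59 to 0.24 (control IgG ratio); these have too few arrangements to pass.

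DESeq2 called 1030 genes for ATV-TfR high against dim, 47 for the ATV difference, 21 for the high bins, 29 for venous against other cells, and 108, 60 and 9 between treatments. An average log2 CPM of at least 5 gave 189, 456, 525 and 10 calls for high against dim and medium in ATV-TfR and then ATV-CD98hc, 0 for the high bins and 12 for venous against other cells. No filter gave 1146 (ATV-TfR high against dim), 907 (ATV-CD98hc high against medium), 379, 416, 76 and 45 (ATV difference, high bins, venous against other cells in ATV-TfR and ATV-CD98hc) and 1 between the ATVs. The replicate block gave 1124, 4185, 4454 and 1416 in the order above, 342, 51 and 4; it left the slopes at 0.67 (adjusted p = 0.028), 1.05 and 1.34 and changed no other call of the counts. A marker sum of at least 5 gave 992, 12, 1138 and 0 calls (ATV-CD98hc dim and medium, ATV-TfR medium, high bins) and slopes of 0.51 (ATV-CD98hc share, no longer past) and -0.022 (ATV-TfR share); it was not run where dim cells were too few. Thinning turned the ATV-TfR share to -0.063. The low bin alone, which left 1 ATV-TfR dim unit, gave 0 for the ATV difference, RLE factors 4 for venous against other cells.

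Chosen after seeing the data, leaving out cells with pericyte UMIs gave 0, 0 and 3 calls (ATV difference, high bins, venous against other cells; 1 ATV-TfR dim unit) and a slope of 0.43. With at least 10 cells per unit, which keeps both units, it gave 849 for ATV-TfR high against dim, 0 and 4 for the ATV difference and venous against other cells, and the low bin alone gave 936 and 21 for the first and second. Low and medium libraries alone gave 2237, 1218 and 1147 calls between treatments and 2 between classes. The planned setting without the high bins gave 1012 (ATV-TfR against control IgG) and 37 (between the ATVs).

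Among 90 called results of genes outside the rule, 1072 of 1382 settings kept the call, 310 lost it and 0 reversed it, and 10 results kept it throughout. For the 14 results of Tfrc and Slc3a2 that were not called, 29 settings passed, 174 did not and 6 turned sign. The values that turned sign passed in no setting: Slc3a2 of ATV-TfR against control IgG (-0.28 without high bins, -0.32 with low and medium bins) and Tfrc of ATV-CD98hc against control IgG (-0.029 and -0.13 under the same, -0.10 to 0.23 without 1 pool). The cause of each was not tested.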

Other observations

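Further genes were higher in venous than in other endothelial cells in all 6 pools, as a description over sums of all bins. They include Ptgis, the prostacyclin synthase gene (18.6 ± 11.1 against 5.08 CPM; SD, 6 pools), Wnt5a (69.2 ± 34.7 against 18.8) and the adhesion gene Sdk1 (69.8 ± 38.7 against 21.8). Immediate early and heat shock genes were lower in all 6 pools for 7 of 14 and higher for 0, and of 10 acute inflammation genes 5 were higher in all 6 pools and 1 lower. Among 4255 genes of at least 50 CPM, 17.6% were higher and 18.9% lower in all 6 pools, whereas the lists had no such minimum.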
